A study of Homo sapiens with 6 samples.

Results

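Interferon regulatory factors (IRFs) other than IRF9 were followed in A549 cells, an established line of human lung adenocarcinoma, after lowering of HNRNPD. The genes were chosen by symbol from the deposited count table: the factors IRF1, IRF2, IRF3, IRF5 and IRF7, and the corepressor genes IRF2BP1 and IRF2BP2. These are 7 of the table's 56303 rows, and all 7 were found and passed the filter on low counts. The control group was transfected with a negative-control siRNA (3 libraries), and the other with siRNA against HNRNPD (3 libraries, called knockdown libraries below). The labels do not say whether these 3 knockdown libraries received the same siRNA sequence. Values are listed in the order of replicates 1 to 3. HNRNPD encodes AUF1, an RNA-binding protein. No time after transfection, siRNA sequence or further treatment is given in the labels, and nothing says that the libraries of a group came from separate cultures, so p-values reflect only how these libraries scatter, and that scatter may be technical.

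IRFs are transcription factors that share a DNA-binding domain with a run of conserved tryptophans and recognise GAAA repeats in promoters of interferon and interferon-stimulated genes. IRF3 is present before infection and is activated by phosphorylation, whereas the IRF7 gene is itself induced by interferon in most cells, and both activate interferon genes. IRF1 activates genes of antigen presentation and cell death, IRF2 binds many of the same sites and is best known as its antagonist, and IRF5 acts mainly in myeloid and B cells. IRF2BP1 and IRF2BP2 were described as corepressors that bind IRF2. IRF9 is the DNA-binding subunit of the ISGF3 complex and serves here only for comparison.

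The knockdown was seen in each library. HNRNPD lay at 965.4, 942.8 and 942.2 counts per 1000000 counts (CPM) across the control libraries and at 177, 162.7 and 167.5 CPM across the knockdown libraries. Library totals ran from 37151094 to 43005090 counts. The keratin genes KRT8, KRT7 and KRT18 were abundant. In sum, 6 epithelial markers lay at 5620 to 6000 CPM in control and 3590 to 3640 CPM in knockdown libraries. Of the 6, 4 were lower and EPCAM was higher, beside 27.8% lower and 28.4% higher of all tested genes (edgeR adjusted p under 0.05). The part of this shift in the results below was not tested. The summed level of 7 immune markers was 2.23 to 3.12 CPM in control and 0.742 to 1.17 CPM in knockdown libraries. Most of it was CD14, a monocyte gene, at 1.69, 1.867 and 2.646 CPM in control and 0.2748, 0.6681 and 0.5995 CPM in knockdown libraries. CD14 was the only immune marker tested and was lower (log2 fold change -1.98, SE 0.30, edgeR adjusted p = 1.56e-05), and its part in the results was not tested. The leucocyte gene PTPRC had counts of 0, 2 and 2 in control and 0 in every knockdown library.

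Because IRF1 is a known target of interferon signalling and of NF-kB, the stretch before its first exon is shown first. The RefSeq table (GRCh38.p14) held start sites for 4 of the 7 genes, IRF1, IRF5, IRF2BP1 and IRF2BP2, and none for IRF2, IRF3 or IRF7. The 125 bases of chr5:132490799-132490923 on the minus strand, just before the outermost IRF1 exon of GENCODE 29, hold a match to the gamma-activated sequence TTCNNNGAA and a match to the NF-kB motif, both in capitals.
IRF1 promoter: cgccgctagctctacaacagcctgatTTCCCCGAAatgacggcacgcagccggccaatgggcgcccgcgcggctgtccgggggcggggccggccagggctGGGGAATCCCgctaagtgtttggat
The first match begins 124 bases and the second 50 bases before the RefSeq start site, and the second reads as a match on both strands. Over 35116 promoter windows of the same length (250 bases before to 50 after a start site), 7.66% hold the gamma-activated sequence and 11.3% the NF-kB motif on either strand.

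Matches in other promoters are shown because they lie before IRF9, which rose, as well as before IRF2BP1 and IRF5, which were not called. IRF2BP1 has a gamma-activated sequence match that begins 57 bases before its start (chr19:45886182-45886206), and IRF9 has one at 63 bases (chr14:24161194-24161218), shown with flanking bases and the match in capitals. The first lies outside the annotated gene, whereas GENCODE 29 places the IRF9 stretches in the 5′ UTR of longer transcripts.
IRF2BP1: gactacgtTTCCCAGAAggctttgc
IRF9: cacgtgatTTCTGGGAAaaggccct
The shorter IRF core AANNGAAA, added to the search after the sequences were seen, occurs in 22.8% of all windows and lies within the full response element core named below. It was found before the start of IRF9 (chr14:24161222-24161245) and, on the reverse strand, before the third of 4 IRF5 starts (chr7:128940629-128940652), within an IRF5 intron, again in capitals.
IRF9: tggaggagAACTGAAActtagggt
IRF5: ctagccacTTTCGTTTcccctggg
The full interferon-stimulated response element core (GAAA, any 2 bases, GAAA) is present in 3.57% of all windows. It had no match in the windows of IRF1, IRF5, IRF2BP1, IRF2BP2, IRF9 or STAT2. The windows of STAT2, an ISGF3 subunit gene that also rose, and of IRF2BP2, which was not called, held no match to any motif searched. Such matches describe letters in a window and not binding.

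HNRNPD siRNA was followed by a rise of IRF7 and IRF1 and a small decrease in the counts of IRF3, while IRF2, IRF5, IRF2BP1 and IRF2BP2 were not called. A gene was called at an adjusted p under 0.05 in edgeR's quasi-likelihood test. In all, 3 of the 7 genes were called, 2 higher and 1 lower, against 56.1% of the 20465 genes tested (28.4% higher and 27.8% lower). The median log2 fold change of the 7 genes was 0.10, beside 0.01 over all genes tested. With only 7 genes, a count of 3 lies near the background share and is no result about the set. Both genes called higher exceeded 2-fold, as did 10.2% of tested genes in that direction, and no gene fell by 2-fold, beside 6.09%. By size, 0.347% of tested genes had a larger absolute log2 fold change than IRF7, and 5.48% a larger one than IRF1.

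**Figure D1:**
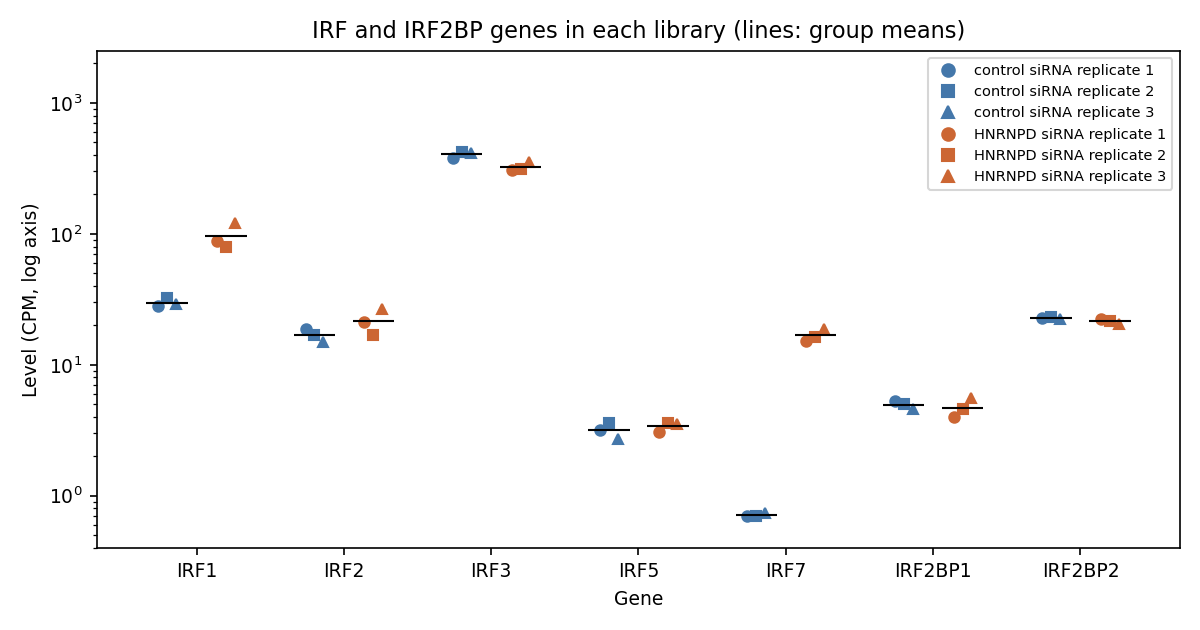
Level of each gene in CPM (log axis) in each of the 6 libraries, with control siRNA in blue, HNRNPD siRNA in orange and a black line at each group mean. The groups stand apart for IRF7 (0.7145 against 16.82 CPM) and IRF1 (29.78 against 95.83 CPM), narrowly for IRF3 and IRF2BP2, and overlap for the other genes.

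**Figure D2:**
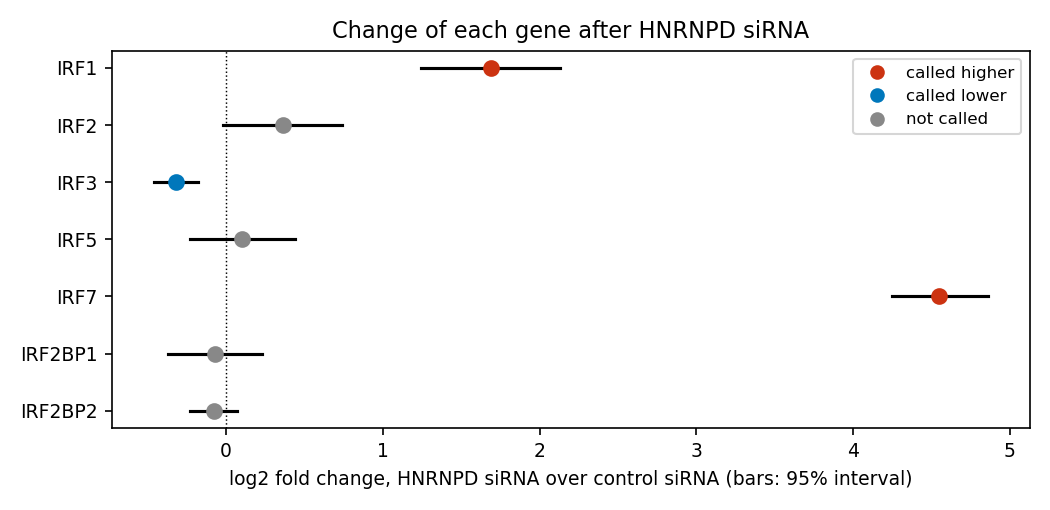
Fitted log2 fold change of HNRNPD siRNA over control siRNA for each gene, with its 95% interval as a bar. The intervals of IRF7 (4.25 to 4.86) and IRF1 (1.24 to 2.13) lie far above 0, that of IRF3 (-0.46 to -0.18) below it, and the other 4 include 0.

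IRF7 (chromosome 11, 612553 to 615999, minus strand, GRCh38) had the largest change of the 7 genes. It was counted 30, 30 and 31 times in the control and 555, 683 and 757 times in the knockdown libraries. Its level was 0.7043, 0.7002 and 0.739 CPM in the control libraries and 15.25, 16.3 and 18.91 CPM in the knockdown libraries. Each knockdown library thus lay far above each control library, with the control libraries nearly level. The fitted log2 fold change was 4.55 (SE 0.14, edgeR adjusted p = 2.92e-14), and it ran from 4.45 to 4.61 over 15 alternative analyses. IRF7 shares no exonic base with another gene in the table. PHRF1, a gene on the opposite strand 331 bases from IRF7, was abundant, at a mean of 184.5 CPM in control and 259.1 CPM in knockdown libraries, and was also called higher (log2 fold change 0.49, SE 0.06). Whether part of the rise reflects more responding cells or more mRNA per cell cannot be told apart in bulk RNA, for this or any other gene.

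IRF1 (chromosome 5, 132481609 to 132490798, minus strand) lay at 28.01, 32.26 and 29.08 CPM in the control libraries. In the knockdown libraries it lay at 87.67, 78.98 and 120.8 CPM. The groups did not overlap, and replicate 3 was the highest of the knockdown libraries, 1.45 times the mean of replicates 1 and 2. The rise was 3.22-fold (log2 fold change 1.69, SE 0.18, edgeR adjusted p = 0.000423), and the log2 value was 1.48 without HNRNPD siRNA replicate 3. An antisense gene, RP11-89G4.1, lies wholly within IRF1 exons but held at most 24 counts in a library, and with its counts taken off IRF1 the log2 fold change was 1.68.

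IRF2 (chromosome 4, 184387713 to 184474580, minus strand), the antagonist on sites that IRF1 also binds, was not called. Its levels were 18.69, 16.76 and 14.97 CPM in the control libraries and 21.33, 16.75 and 26.65 CPM in the knockdown libraries. HNRNPD siRNA replicate 2 lay at the middle control value, and replicate 3 stood above the other two. The log2 fold change was 0.36 (SE 0.17, 95% interval -0.02 to 0.74, edgeR adjusted p = 0.10). It was called higher without HNRNPD siRNA replicate 2 (0.51, edgeR adjusted p = 0.00101), and fell to 0.17 without replicate 3 (edgeR adjusted p = 0.163). DESeq2 called it too (0.35, adjusted p = 0.0219).

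Per kilobase of gene length, IRF1 stood below IRF2 in each control library and above it in each HNRNPD siRNA library. The ratio of IRF1 to IRF2 in CPM per kilobase was 0.599, 0.769 and 0.776 in the control and 1.64, 1.88 and 1.81 in the knockdown libraries. On the log2 scale the ratio rose by 1.32, from -0.49 ± 0.21 to 0.83 ± 0.10 (SD, n = 3 per group, exact two-sided permutation p = 0.1, the smallest that 3 against 3 libraries allows). The lengths are of all annotated exons of a gene together, 7799 bases for IRF1 and 3116 for IRF2, so the ratio rests on that choice of length, while the difference between the log2 ratios does not.

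**Figure D3:**
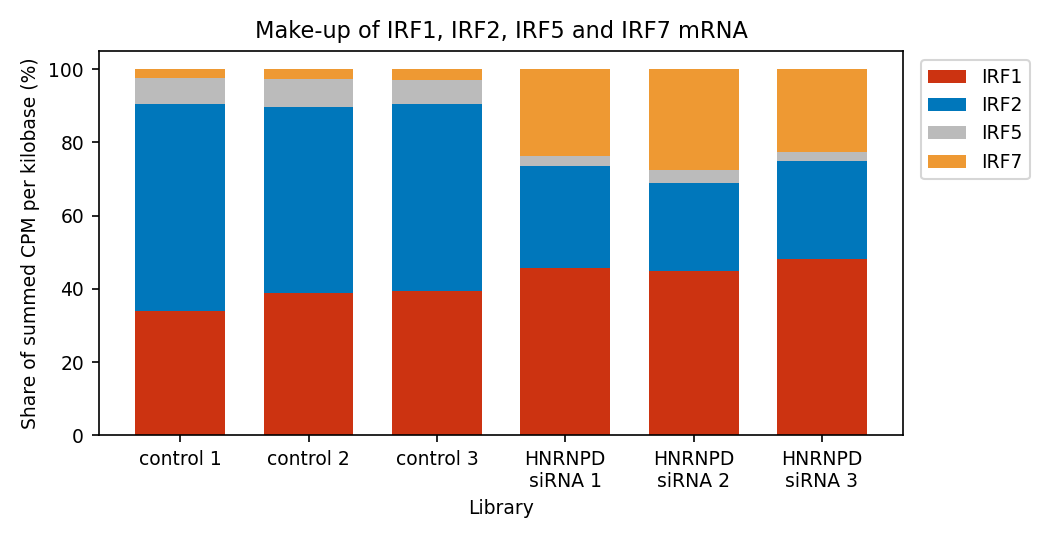
Share of IRF1, IRF2, IRF5 and IRF7 in their summed CPM per kilobase, one bar for each library. IRF2 takes 50.7% to 56.7% in the control libraries and 23.9% to 27.8% after HNRNPD siRNA, while IRF7 goes from 2.51% to 2.98% up to 22.5% to 27.5%.

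The plot of shares shows the part of each of IRF1, IRF2, IRF5 and IRF7 in their sum, without IRF3. These shares rest on the same choice of gene length as the ratio above. Among IRF1, IRF2, IRF5 and IRF7 together, IRF1 held 33.9% to 39.5% of the summed level per kilobase in the control libraries and 45% to 48.3% in the knockdown libraries. IRF5 held 6.58% to 7.75% and then 2.51% to 3.66%, while its own level was not called. IRF3 was left out of these shares because its counts are not its own with certainty. With IRF3 included as deposited, it held 90.5% to 92% in the control and 74.5% to 78.5% in the knockdown libraries. On that sum IRF1 held 3.15% to 3.38% and then 9.66% to 12.3%, and IRF7 0.218% to 0.24% and then 5.52% to 5.92%.

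IRF3 (chromosome 19, 49659569 to 49665875, minus strand), the factor that is present before infection, had by far the most counts. Its levels were 382.6, 423.4 and 412.8 CPM across the control libraries and 305.3, 312.3 and 356 CPM across the knockdown libraries. Each knockdown library lay below each control library, and the difference was 1.25-fold (log2 fold change -0.32, SE 0.07, edgeR adjusted p = 0.000422). However, 734 of its 3794 exonic bases are also exons of BCL2L12, a gene of the BCL2 family on the opposite strand. BCL2L12 had 0.923 to 0.942 of the counts of IRF3 in each library and nearly the same change (log2 fold change -0.34, SE 0.07).

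The sources used here do not say how reads over both genes were counted. If each read over shared bases were counted for both, the counts that IRF3 must own would be at least its excess over BCL2L12. That excess was 22.1, 27.8 and 24.2 CPM in the control and 20.5, 21.9 and 27.3 CPM in the knockdown libraries, so that the groups overlapped. Its log2 fold change was -0.09 (SE 0.11, edgeR adjusted p = 0.508), an analysis added after the data were seen. Under that counting, the mean level of IRF3 alone in the control libraries lies between 24.7 and 406.3 CPM, and a fall of IRF3 cannot be told apart from one of BCL2L12.

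**Figure D4:**
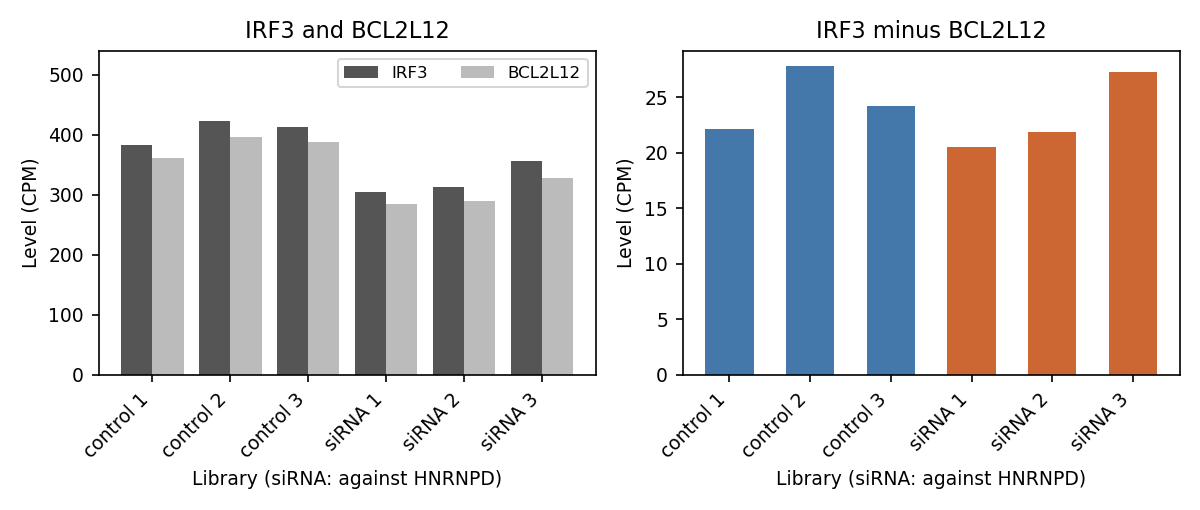
Left, levels of IRF3 and of the overlapping gene BCL2L12 in CPM in each library, which follow each other closely; right, IRF3 minus BCL2L12 in CPM, with control siRNA in blue and HNRNPD siRNA in orange. The excess of IRF3 is 22.1 to 27.8 CPM in the control libraries and 20.5 to 27.3 CPM in the knockdown libraries.

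The ratio of IRF7 to IRF3 in CPM per kilobase, taken on the counts as deposited, was 0.00239 to 0.00266 in the control libraries and 0.0721 to 0.0767 in the knockdown libraries. On the log2 scale it rose by 4.88, from -8.62 ± 0.08 to -3.74 ± 0.05 (SD, n = 3 per group, exact two-sided permutation p = 0.1, again the smallest possible). Counts shared with BCL2L12 would make the true ratio higher in both groups.

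IRF5 (chromosome 7, 128937612 to 128950035, plus strand), a factor of myeloid and B cells, was low. It lay at 3.193, 3.595 and 2.718 CPM in the control libraries and at 3.078, 3.603 and 3.522 CPM in the knockdown libraries. The groups overlapped, and the log2 fold change was 0.10 (95% interval -0.23 to 0.44, edgeR adjusted p = 0.603).

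The corepressor gene IRF2BP1 (chromosome 19, 45883607 to 45886170, minus strand) lay at 5.306, 4.995 and 4.577 CPM in the control libraries and at 3.958, 4.581 and 5.595 CPM in the knockdown libraries. Its knockdown libraries held both the lowest and the highest of the 6 values (log2 fold change -0.07, 95% interval -0.37 to 0.23, edgeR adjusted p = 0.696). IRF2BP2 (chromosome 1, 234604269 to 234609525, minus strand) lay at 22.75, 23.06 and 22.48 CPM in the control and at 22.43, 21.59 and 20.61 CPM in the knockdown libraries. The groups did not overlap, by a narrow margin, yet the gene was not called (log2 fold change -0.08, 95% interval -0.23 to 0.07, edgeR adjusted p = 0.367). Groups that do not overlap were found for 62.6% of all tested genes, and for 4 of these 7.

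An antisense gene, RP4-781K5.2, lies wholly within IRF2BP2 exons and had 0.359 to 0.433 of its counts. With those counts taken off, the log2 fold change of IRF2BP2 was -0.17 (SE 0.08, edgeR adjusted p = 0.0875).

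The order of the genes by level per kilobase differed between the groups. In the control libraries it ran from IRF3 (107 CPM per kilobase, with the limit above) through IRF2 (5.39), IRF2BP2 (4.82), IRF1 (3.82), IRF2BP1 (1.93) and IRF5 (0.724) to IRF7 (0.272). IRF2 and IRF2BP2 overlapped in their ranges, and the other neighbours did not. In the knockdown libraries IRF1 came after IRF3 at 12.3 CPM per kilobase, followed by IRF2 (6.92) and IRF7 (6.40), whose ranges overlapped, then IRF2BP2 (4.56), IRF2BP1 (1.84) and IRF5 (0.777). IRF7 was thus the lowest of the 7 in the control libraries and overlapped IRF2 in the knockdown libraries. The place of IRF1 rests on the choice of gene length, as its ratio to IRF2 does. In CPM not divided by length, the control mean of IRF1 (29.78) was already above those of IRF2BP2 (22.76) and IRF2 (16.81). The place of IRF2BP2 also depends on its antisense gene RP4-781K5.2. With the counts of that gene taken off, the control mean of IRF2BP2 was 14.1 CPM.

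HNRNPD siRNA replicate 3 was the highest of the knockdown libraries for 5 of the 7 genes (IRF1, IRF2, IRF3, IRF7 and IRF2BP1), against 36.4% of all tested genes and 44.7% of those called higher. Its HNRNPD level was 0.986 of the mean of replicates 1 and 2. The ratio between the highest and the lowest knockdown library was 1.53 for IRF1, 1.59 for IRF2 and 1.24 for IRF7.

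Of the other family genes, IRF9 rose from 31.77 ± 1.61 to 166.8 ± 4.90 CPM (SD, n = 3; log2 fold change 2.39, SE 0.06, edgeR adjusted p = 2.73e-15), but 0.484 of its exonic bases are shared with a clone-named gene on the same strand that had 1.106 to 1.272 times its counts and a log2 fold change of 2.21 (SE 0.06). STAT2, another ISGF3 subunit, had a log2 fold change of 3.23 (SE 0.09). IRF7 thus had a larger log2 fold change, and IRF1 a smaller one, than IRF9 or STAT2, though the differences between genes were not tested. The lymphoid factor IRF4 had 0 to 7 counts and the myeloid factor IRF8 4 to 11, too few to be tested. IRF2BPL, the paralog of the corepressor genes, was not called (log2 fold change 0.30, SE 0.14, edgeR adjusted p = 0.0772), but was on leaving out control replicate 1 (0.40, adjusted p = 0.0413) or knockdown replicate 2 (0.39, adjusted p = 0.0352). It shares 614 exonic bases with an antisense gene, RP11-7F17.8, that had 0.502 to 0.575 of its counts and was not called (log2 fold change 0.26, SE 0.16).

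The genes whose 6 library values lay closest to those of IRF1 and IRF7 were sought among 9642 other genes that code for proteins and averaged at least 5 CPM. Closeness was the root mean square distance of log2(CPM + 0.5) values centred on the control mean, over 6 libraries. For IRF1 the 5 nearest were TMEM62 (distance 0.0554), KIAA1217 (0.0685), PTGS2 (0.0742), which encodes cyclooxygenase 2, B2M (0.0824), the light chain of class I HLA, and the DNA exonuclease gene TREX1 (0.0939). Their log2 fold changes ran from 1.61 to 1.87. For IRF7 they were DDX60 (0.116), FST (0.173), which encodes the activin antagonist follistatin, the double-stranded RNA sensor OAS3 (0.196), TRANK1 (0.21) and PARP9 (0.214), with log2 fold changes of 3.68 to 4.47. The distance shrinks low values through the added 0.5, so that genes of another starting level can lie close. With 2 groups, such a distance mostly measures the size of the change.

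Genes next to the 7 on the chromosome were examined after their values were seen. Of 14 neighbours that averaged at least 1 CPM, the nearest on each side, 6 were higher and 4 lower, with log2 fold changes of -0.42 to 2.79, and the 71.4% called stand beside 56.1% of all tested genes. The largest change was that of C5orf56, on the lower-coordinate side of IRF1, which lies 5565 bases away on the opposite strand. It had 4.249, 4.178 and 5.006 CPM in the control and 31.63, 26.53 and 35.1 CPM in the knockdown libraries, a rise of 6.94-fold (log2 fold change 2.79, SE 0.11, edgeR adjusted p = 1.37e-12). On the other side, RAD50, a DNA repair gene 65221 bases away, had a log2 fold change of 0.65 (SE 0.06). Beyond IRF7, DEAF1 was not called (0.00, SE 0.10).

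The genes that act before the IRFs were mixed, and the RNA sensors among them rose most. Of 20 sensors, adaptors and kinases that lead to IRF3, IRF5 or IRF7, 17 were tested, 10 were higher and 1 was lower, beside 28.4% and 27.8% of all tested genes, and the median of their log2 fold changes was 0.31. The cytosolic RNA sensors DDX58 (RIG-I) and IFIH1 (MDA5) had log2 fold changes of 4.49 (SE 0.22) and 5.12 (SE 0.29). MYD88, the adaptor by which Toll-like receptors reach IRF5 and IRF7, rose 4.06-fold (edgeR adjusted p = 1.96e-10), and AZI2, an adaptor of TBK1, 2.08-fold. TBK1, the kinase that phosphorylates IRF3, rose 1.24-fold, from 98.43 ± 4.54 to 122 ± 12.4 CPM (SD, n = 3). CHUK, which encodes IKK-alpha and went the other way, had a log2 fold change of -0.25 (SE 0.07). The related kinase gene IKBKE was not called (-0.25, edgeR adjusted p = 0.142), but was lower without HNRNPD siRNA replicate 3 (-0.43, edgeR adjusted p = 8.34e-05) and with the replicate block (adjusted p = 0.0196). The adaptor TMEM173 (STING) had at most 14 counts per library, and TLR7 none. A count of 0 allows up to 3 counts in each library, or more if both mates of a read pair were counted.

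Of genes described as restraining IRF proteins, all 12 were tested, with 6 higher and 4 lower and a median of 0.32. The share lower is close to the 27.8% of all tested genes, and 28.4% of those were higher. TRIM21, a ubiquitin ligase for IRF3 and other IRFs, rose 8.30-fold, RBCK1 (HOIL-1), which was described to promote loss of IRF3, 2.87-fold, and SOCS1, an inhibitor of cytokine receptor signalling, 7.29-fold. Among those that fell were UBE3C, FOXO3 and PELI1, at log2 fold changes of -0.31, -0.48 and -0.66. Of 10 coactivators and partner factors, 8 were tested, 3 were higher and 1 lower, with a median of 0.12, and the share called is near the 56.1% of all tested genes. The acetyltransferase gene KAT2A rose 2.56-fold, while RELA, the NF-kB subunit that acts with IRF3 on the IFNB1 promoter, fell 1.30-fold. CREBBP (log2 fold change 0.21, edgeR adjusted p = 0.0131) was not called without control replicate 2 or 3 or HNRNPD siRNA replicate 3 (adjusted p = 0.0789, 0.0528 and 0.0595). JUN (1.29, edgeR adjusted p = 0.0265) was not called without control replicate 1, 2 or 3 (adjusted p = 0.091, 0.0846 and 0.0851) or with no filter on low counts (0.0592).

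**Figure D5:**
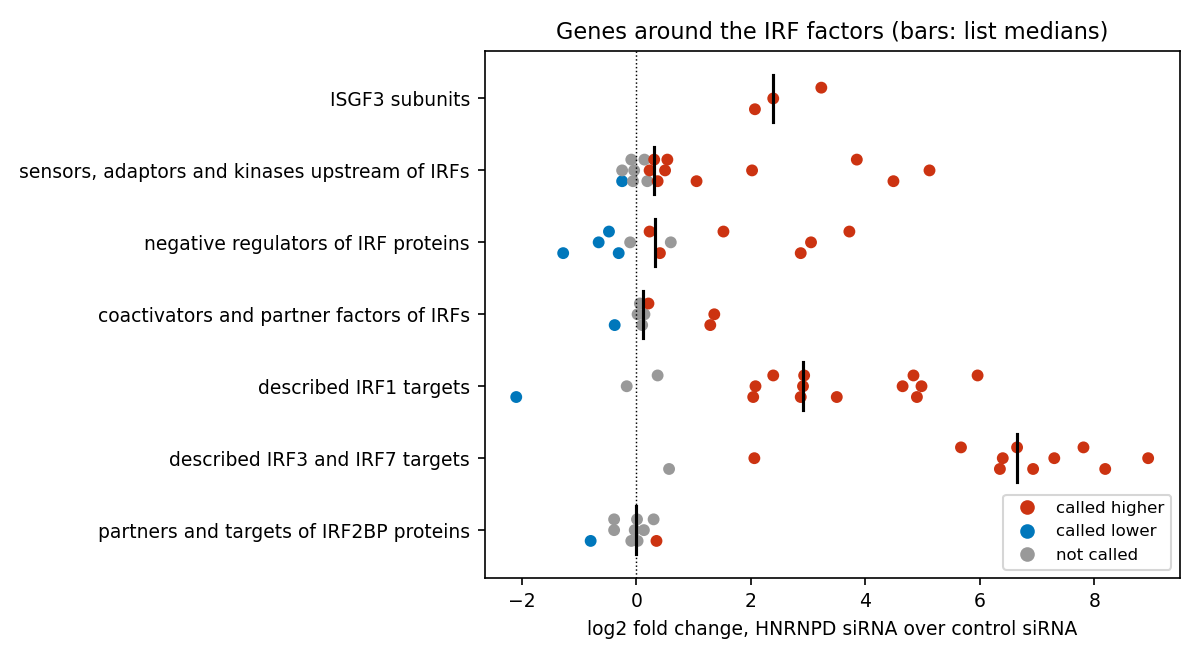
Fitted log2 fold change of each tested gene in 7 lists around the IRF factors, with red for called higher, blue for called lower, grey for not called and a black bar at each list's median. Medians lie at 2.91 for described IRF1 targets and 6.65 for described IRF3 and IRF7 targets, and near 0 (-0.01) for partners and targets of the IRF2BP proteins.

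Described IRF1 targets were mostly higher. Of 16 genes 15 were tested, 12 were higher and 1 lower, beside 28.4% and 27.8% of all tested genes, and the median of their log2 fold changes was 2.91. IDO1 passed the filter on low counts only through the knockdown libraries, and VCAM1 only through the control libraries. IL15, a cytokine, rose 4.12-fold (edgeR adjusted p = 3.51e-13), and SOCS1 as given above. IDO1, which degrades tryptophan, had counts of 0, 0 and 2 in control and 33, 25 and 80 in knockdown libraries. VCAM1, an adhesion gene, went the other way with 20, 34 and 49 counts and then 4, 2 and 16 (log2 fold change -2.10, SE 0.55, edgeR adjusted p = 0.00419), and its value was -3.35 without HNRNPD siRNA replicate 3. CDKN1A and CIITA, the coactivator of class II HLA genes, were not called (-0.17 and 0.37); CDKN1A was lower without control replicate 2 (edgeR adjusted p = 0.0368) or HNRNPD siRNA replicate 3 (0.0423), and CIITA higher without HNRNPD siRNA replicate 2 (0.0486).

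Described targets of IRF3 and IRF7 were mostly higher. Of 12 genes 11 were tested and 10 were higher, beside 28.4% of all tested genes, with a median of 6.65. However, 5 of the 10, CXCL10 and IFNL1 among them, fell short of the filter's count in at least 1 control library, so being tested favoured a rise. IFIT1, which binds foreign RNA caps, rose from 5.055 ± 0.342 to 506.6 ± 84.2 CPM (SD, n = 3; log2 fold change 6.65, SE 0.15, edgeR adjusted p = 2.26e-10). ISG15, a ubiquitin-like modifier, and IFIT2 had log2 fold changes of 6.35 (SE 0.35) and 7.30 (SE 0.45). The chemokine gene CXCL10 had 0, 0 and 2 counts in control and 17, 22 and 74 in knockdown libraries. PMAIP1, the p53 target NOXA, was not called (0.57, edgeR adjusted p = 0.197), but was with the replicate block (adjusted p = 0.0379). Many of these genes are also direct targets of ISGF3, so the factors cannot be told apart by them, and the lists were drawn up with earlier results of these data known.

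Among 22 interferon ligand genes, the type III genes IFNL1, IFNL2 and IFNL3, described targets of IRF3 and IRF7, had at most 2 counts in a control library and at least 90 in each knockdown library. Of the 22, 5 were tested. The 4 that were called, IFNL1, IFNL2, IFNL3 and IFNA1, passed the filter only through the knockdown libraries, so that being tested and being higher go together, and their number is no result about the list. IFNL1 had 2, 0 and 0 counts in control and 112, 90 and 294 in knockdown libraries. IFNL2 had 0, 0 and 2 and then 144, 161 and 313 counts. IFNL3 had 0 in each control library and 200, 228 and 456 counts after HNRNPD siRNA. That is at least 105-fold higher when each control library is set to 3 counts. The bound would be lower if both mates of a read pair were counted. IFNL2 and IFNL3 are near-identical copies, and the sources used here do not say how reads that fit both were counted. IFNB1 was not seen in control and had 8, 22 and 46 counts, too few to be tested. In each of these 4 genes replicate 3 was the highest, as it was for IRF7 and IRF1. IFNE, the epithelial interferon gene, was not called (log2 fold change 0.36, edgeR adjusted p = 0.097), but was without HNRNPD siRNA replicate 2 (0.49, edgeR adjusted p = 0.0398). IFNA1, with 2 to 15 counts per library, was called higher (1.5, SE 0.55, edgeR adjusted p = 0.0251), but not when control replicate 2 (adjusted p = 0.127) or 3 (0.0549), or knockdown replicate 1 (0.0931) or 3 (0.0677), was left out, nor by DESeq2 (0.056) or with no filter on low counts (0.0654).

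Few partners and described targets of IRF2BP proteins were called. Of 10 genes tested, 1 was higher and 1 lower, and the median of the log2 fold changes was -0.01. TEAD2 had 0.35 (edgeR adjusted p = 0.00553) and NFATC2, a factor of calcium signalling, -0.80 (edgeR adjusted p = 0.00866). VEGFA, a described target of IRF2BP2, was not called (0.13, edgeR adjusted p = 0.0819), but was without HNRNPD siRNA replicate 1 (adjusted p = 0.0464) and with at least 1 CPM required in 3 libraries (0.0342). The shares called here, 1 of 10 in each direction, lie below the 28.4% and 27.8% of all tested genes.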

How the data were processed

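RNA was measured in 6 A549 libraries made with an Illumina TruSeq RNA kit, per the labels' protocols. The authors deposited whole-number read counts per gene in 1 table, with gene length in bases; per the submitters' processing notes, GRCh38, mm8 and Bowtie 0.12.2 were named without a role. The counting program and strand setting were not given in the sources used here. Counts of 1 to 20 were even in 66.2% to 69.5% of cases per library, as when both mates are counted. The ends of the 7 genes equal those of GENCODE 29 (GRCh38).

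The 2 groups were tested in edgeR 4.0.16 (R 4.3.3): TMM, filterByExpr, robust quasi-likelihood test, group as the only term, Benjamini-Hochberg adjustment over 20465 genes, threshold 0.05. CPM use TMM-scaled totals. Standard errors come from the log2 fold change divided by the root of F, and 95% intervals from these and the moderated degrees of freedom. The procedure was tested on simulated data in which few genes changed, by small amounts and with a common scatter, unlike these data. That simulation thus does not show how often the calls made here are wrong. Ratios were tested by exact permutation over libraries. Replicates differed by more than counting noise (chi-square per degree of freedom 6.13 to 24.74). Alternatives used limma-voom 3.58.1, DESeq2 1.42.0, other scalings and filters, halved counts, the table without mitochondrial genes, a replicate block and leaving out each library. Limits that rest on counts hold for counting error alone.

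The members and gene lists were chosen with earlier results of these data known. Named are the 7 genes and HNRNPD, the other IRF and ISGF3 genes, up to 4 genes of each list with the smallest p, those that went against their list, ligand genes that averaged at least 1 CPM in a group, and the 5 genes nearest in pattern to IRF1 and IRF7; others named were chosen after their values were seen. Some genes under this rule are not reported here. Of the marker lists, 5 fibroblast genes summed to 4.72 to 5.78 CPM in control and 6.28 to 7.70 CPM in HNRNPD siRNA libraries, and 4 endothelial genes to 0.327 to 0.501 and 0.375 to 0.597 CPM.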

Additional observations from a re-analysis of the deposited data

How the results depend on the processing

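The calls of IRF7 and IRF1 held in all alternatives run (15 and 16), with log2 fold changes of 4.45 to 4.61 and 1.48 to 1.81, and HNRNPD ran from -2.53 to -2.46. The fall in the counts of IRF3 held in 15 of 16. In the other, all counts of BCL2L12 were taken off, though only 0.331 of its exonic bases are shared with IRF3. What was left is a lower bound under the counting named above, and not a measure of the change of IRF3. Its log2 fold change was -0.09 and was not called, leaving 0 members lower in edgeR. The number was also 0 at an unadjusted p under 0.05, and no other tool was run on these counts. IRF2 was called with no filter on low counts (0.34, adjusted p = 0.000624) and by DESeq2 (0.35), and ran from 0.17 to 0.51 when each library was left out. Likewise IRF5 ran from -0.01 to 0.20, IRF2BP1 from -0.22 to 0.03, and both stayed uncalled.

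Requiring at least 1 CPM in 3 libraries gave a median of 1.37 for other IRF genes (fewer genes tested), 0 lower IRF1 targets (VCAM1 no longer passed) and 2 higher IRF2BP partners; halved counts gave 1.36 and 0. With no filter, 2 upstream genes were lower, with a median of 0.21, and the median of interferon ligand genes was 2.69, against 7.81 as fitted and 6.72 with IFNL3 at its bound. Leaving out libraries in turn gave these ranges: other IRF genes 1 to 2 higher and medians of 0.11 to 0.60; upstream genes 1 to 2 lower; negative regulators medians of 0.20 to 0.35; coactivators 1 to 3 higher and medians of 0.04 to 0.14; IRF1 targets 1 to 2 lower; IRF3 and IRF7 targets medians of 6.26 to 7.02; ligands medians of 7.11 to 8.12; IRF2BP partners 1 to 2 higher. Other causes were not tested.

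No pairing by replicate number was seen: deviations from the group means of same-numbered libraries correlated at 0.03, 0.02 and 0.01. With 3 libraries per group, such values cannot tell whether the libraries were paired by design, and the labels do not say. With the replicate block IRF1 had a log2 fold change of 1.66, IRF2 0.34, IRF3 -0.33 and IRF7 4.55, with the same calls, and 2 upstream genes were lower.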
